A study of Danio rerio with 12 samples.

Results

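Skeletal muscle of zebrafish taken 3 h after the refeeding that ended a 24 h fast (Refed_3h) was compared with muscle of fish fasted for 24 h (Fast). The comparison took every library that the labels place in either group, 4 Refed_3h fish and 4 Fast fish, which is 8 of the 12 libraries of the series. The other 4 libraries, taken 8 h after refeeding (Refed_8h), entered the same model and are given only beside genes named for the 3 h comparison. All fish were wild type with no strain given, and were 2 to 3 months old by the labels, although the study's methods describe older fish that had also been kept for a further acclimation. Each group held 2 females and 2 males, the sex of a given fish was not recorded, and each library came from 1 fish. No fish was sampled without a fast, so every fold change is relative to the fasted state. The Refed_3h fish were taken later in the day than the Fast fish, and refeeding and time of day therefore cannot be told apart in any result.

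Muscle is the main store of protein in the body, and its gene expression turns with the supply of food. In fasting, low insulin and IGF signalling lets FoxO transcription factors enter the nucleus, where they raise ubiquitin ligases such as atrogin-1 and genes of autophagy, and pyruvate dehydrogenase kinases spare glucose by switching off pyruvate oxidation. Feeding activates AKT and mTORC1, which hold FoxO factors out of the nucleus and raise translation. Zebrafish keep many duplicated genes from an ancient genome duplication, so that a mammalian gene often has an a and a b copy.

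The libraries held 11929140 to 17467497 counts assigned to genes, of which 10.7% to 17.4% fell on 13 mitochondrial genes, and 16745 genes passed the filter on low counts. Levels are given per fish as CPM, counts relative to the library size as scaled by the TMM factors of edgeR. The tissue label was borne out by the data: 20 markers of skeletal muscle, led by the actin gene *actc1b*, summed to 145182 ± 16629 TPM in Refed_3h and 120328 ± 12389 TPM in Fast fish (SD, n = 4 each). TPM are relative to transcript length as well as to library size. The dissected piece also held other cells. Skin keratin and other epithelial markers summed to 16508 to 27938 TPM in Refed_3h and 26368 to 33014 TPM in Fast fish, endothelial markers to 111 to 134 TPM in Refed_3h and 163 to 179 TPM in Fast fish, and smooth muscle markers to 49.6 to 57.4 TPM in Refed_3h and 75.2 to 97.5 TPM in Fast fish. Erythrocyte markers summed to 1149 to 5129 TPM in Refed_3h and 938 to 1587 TPM in Fast fish, and markers of bone and scale to 174 to 246 TPM in Refed_3h and 64.2 to 247 TPM in Fast fish. Of the 13 marker lists none passed an exact permutation test after adjustment (two-sided, lowest adjusted p = 0.149, the smallest p that 4 against 4 fish allow being 0.029). The endothelial and smooth muscle sums lay at that smallest p. A few lists at that p cannot pass after adjustment over 13, so the test cannot show that content of other cells was alike. Among single markers of other cell types only *plvapb* of endothelium (lower) and *plp1b* of glia (higher) passed the test across all genes. In such bulk tissue, fewer cells of a type and less RNA per cell cannot be told apart.

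A gene is called differentially expressed (DEG) where its edgeR quasi-likelihood adjusted p was under 0.05 and its level differed at least 2-fold. Of the genes tested, 347 were DEGs (2.07%), 115 higher in Refed_3h (0.687%) and 232 lower in Refed_3h (1.39%). Without the fold limit, 821 genes passed (4.9%), 381 higher (2.28%) and 440 lower (2.63%). Every count of list members that passed is to be read against these shares. The lists were chosen with earlier results of these data known, so an excess over a share is a description and not a test. The largest changes were falls: 46 DEGs were at least 4-fold lower in Refed_3h, and 10 were at least 4-fold higher. In 332 of the DEGs the values of the 4 Refed_3h fish did not overlap those of the 4 Fast fish, while 14.0% of all tested genes had no overlap (6.98% higher and 7.02% lower in Refed_3h). DEGs higher in Refed_3h spanned a median of 9910 bp of the genome, DEGs lower in Refed_3h a median of 16985 bp and all tested genes a median of 16959 bp. The count rested partly on single libraries, with 179 DEGs without Fast fish 1, 181 without Refed_3h fish 1 and 226 without Refed_3h fish 4, and with a score for skin markers in the model it was 118, of which 97 were among the 347. The split also rested on the scaling: with library totals alone 44 DEGs were higher and 680 lower, and on log2(TPM + 1) 22 were higher and 353 lower. Over all genes the middle value of the log2 fold changes was -0.01 under TMM scaling, -0.29 with library totals alone and -0.26 on log2(TPM + 1), and small positive differences below are to be read against that shift. Of 128 named genes that passed, 38 (26 lower and 12 higher) passed under each of the 18 alternatives run, and none of the 128 changed sign under any of them.

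Among the genes that fell were ubiquitin ligase adaptors, pyruvate dehydrogenase kinases, insulin signalling genes and genes of autophagy. The largest fitted fall among the genes named was that of *klhl38b*, a member of the Kelch-like family whose proteins bring substrates to cullin ubiquitin ligases (chromosome 16, 25245857 to 25250414 on GRCz11). It stood at 0.148, 0.119, 0.512 and 0.0725 CPM in Refed_3h fish, from 2, 2, 7 and 1 counts, against 5.13, 12.7, 57.7 and 18.3 CPM in Fast fish. The groups lay far apart, although the Fast fish themselves spread widely with fish 3 the highest. The fitted log2 fold change was -6.75 ± 1.00 (edgeR adjusted p = 0.0052, ± SE throughout, approximated from the test statistic for edgeR values). Its copy *klhl38a* did not pass, at 6.88, 5.9, 10.8 and 9.79 CPM in Refed_3h and 3.99, 5.34, 11.7 and 6.77 CPM in Fast fish. A second Kelch-like gene, *klhl24b*, had 16.5, 19.3, 17.4 and 20.9 CPM in Refed_3h and 132, 92.1, 108 and 109 CPM in Fast fish, with all Refed_3h fish close together and far below every Fast fish (-2.57 ± 0.17, adjusted p = 7.1e-06). Both genes passed under every alternative. The other 12 tested members of the muscle Kelch-like list did not pass, and the median over its 14 members was 0.20.

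Both zebrafish copies of pyruvate dehydrogenase kinase 2, the enzyme that phosphorylates and silences the pyruvate dehydrogenase complex, fell steeply. *pdk2a* (chromosome 12, 28559408 to 28570989) had 4.52, 6.92, 3.22 and 6.75 CPM in Refed_3h fish, against 104, 75.6, 86.5 and 110.3 CPM in Fast fish. *pdk2b* (chromosome 19, 5674907 to 5687743) had 4.07, 8.47, 2.34 and 9.5 CPM in Refed_3h fish, against 78.3, 356, 276 and 51.6 CPM in Fast fish. The groups did not overlap for either gene, but the Fast fish were alike in *pdk2a* and spread widely in *pdk2b*, where fish 2 and 3 lay far above fish 1 and 4. The log2 fold changes were -4.13 ± 0.35 for *pdk2a* (adjusted p = 7.3e-05) and -4.96 ± 0.86 for *pdk2b* (adjusted p = 0.013, up to 0.1 and lost with the skin score in the model). No other of the 15 tested genes of the complex, its kinases, its phosphatases and the pyruvate carriers passed, and the median over them was 0.13. *pdk4*, the kinase best known for its rise on fasting in mammals, had a log2 fold change of 0.13 (adjusted p = 0.84), and *pdp1*, a phosphatase that switches the complex back on, of 1.66 (adjusted p = 0.072).

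Among ubiquitin ligases of muscle wasting, the 2 members of 23 that passed were *fbxo32* and *fbxo25*, both lower in Refed_3h. *fbxo32*, which encodes atrogin-1, lies on chromosome 16, 25259313 to 25272633, and had 1.33, 2.21, 1.83 and 1.31 CPM in Refed_3h fish, against 13, 71.1, 63.2 and 49.3 CPM in Fast fish. All 4 Refed_3h fish were close to 1 or 2 CPM, whereas Fast fish 1 stood well below the other Fast fish (-4.86 ± 0.75, adjusted p = 0.0068, 0.069 with the skin score in the model). Its relative *fbxo25* had 5.77, 10.9, 5.04 and 11.3 CPM in Refed_3h and 32.6, 29.9, 23 and 29.9 CPM in Fast fish (-1.80 ± 0.25, adjusted p = 0.0018). *trim63a*, one of 2 copies of the gene for the sarcomere ligase MuRF1, did not pass, with 54.5, 34.9, 86.2 and 81.6 CPM in Refed_3h and 38.7, 69.2, 269 and 157 CPM in Fast fish, where Fast fish 1 and 2 lay within the Refed_3h range and Fast fish 3 and 4 above it (-1.05 ± 0.57, adjusted p = 0.3). Few genes of the machinery that degrades the tagged proteins passed. In the lists of 36 lysosomal proteases and V-ATPase subunits and of 52 proteasome subunits, none and 1 passed. Their medians were 0.02 and -0.03. The 1 that passed, the activator subunit *psme3*, was higher (0.59 ± 0.15, adjusted p = 0.043, lost in 14 alternatives), against 2.28% higher over all genes.

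**Figure D1:**
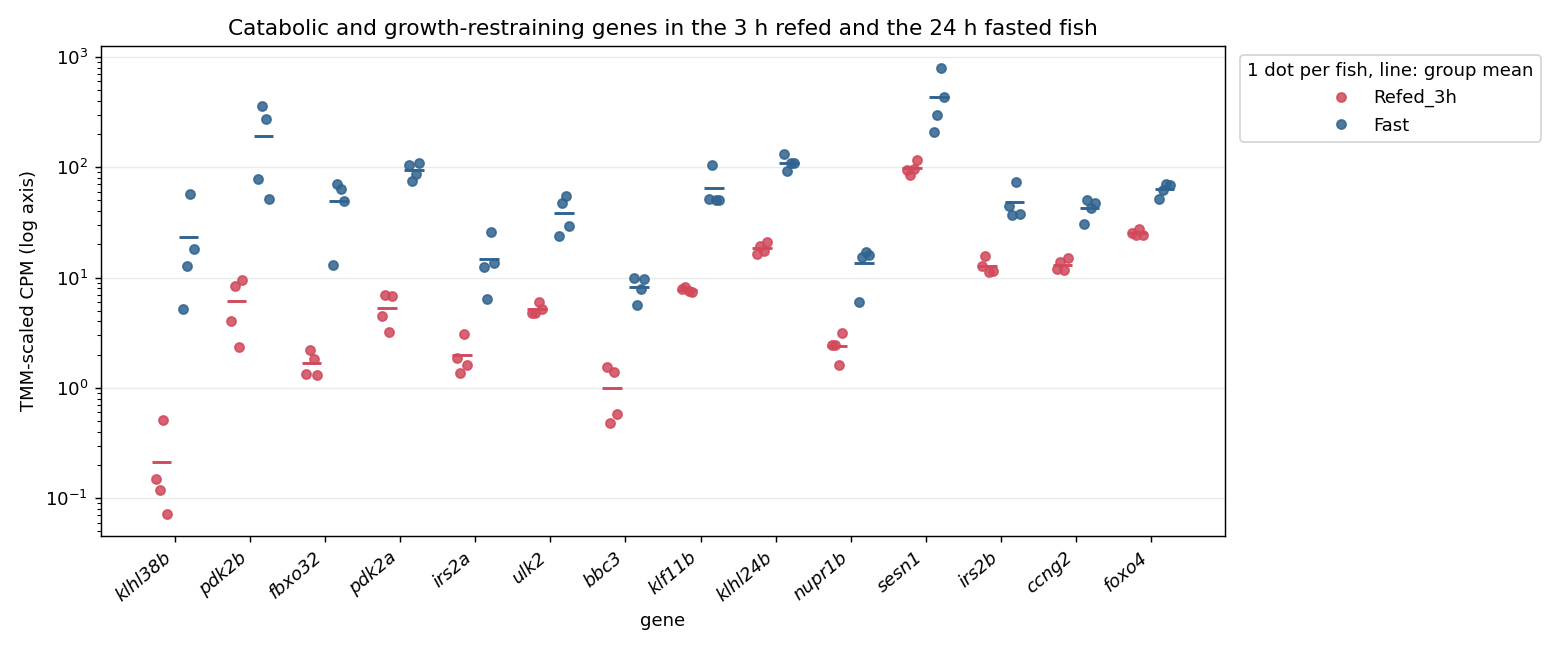
TMM-scaled CPM on a log axis of 14 genes lower in Refed_3h than in Fast muscle, with 1 dot per fish and a line at the group mean. Refed_3h and Fast fish do not overlap in any of these genes, but many were picked by a rule that asked for no overlap. Of all tested genes 14.0% had no overlap. The Fast fish spread most in *klhl38b* (5.13 to 57.7 CPM) and *pdk2b* (51.6 to 356 CPM).

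Several insulin signalling genes were lower after refeeding. The list of insulin and IGF receptors and signalling had 5 of 25 tested members that passed, all lower, against 2.63% of all genes. Insulin receptor substrate 2, which couples the receptor to PI3-kinase, fell in both copies: *irs2a* had 1.85, 1.37, 3.07 and 1.6 CPM in Refed_3h and 12.5, 6.33, 26 and 13.7 CPM in Fast fish (-2.89 ± 0.47, adjusted p = 0.0065), and *irs2b* had 12.7, 15.8, 11.2 and 11.5 CPM in Refed_3h and 44.6, 36.8, 74 and 38 CPM in Fast fish (-1.92 ± 0.22, adjusted p = 0.00043). No Refed_3h fish reached the lowest Fast fish in either copy. *pik3ip1*, whose mammalian product holds PI3-kinase back, was at 14.5, 13.4, 18.4 and 24.2 CPM in Refed_3h and 41.6, 44.6, 66 and 50.7 CPM in Fast fish (-1.53 ± 0.21, adjusted p = 0.0019). *pdpk1a*, a copy of the gene for the kinase that activates AKT, was at 6.37, 4.83, 5.63 and 5.01 CPM in Refed_3h and 16, 11.7, 14.4 and 12.9 CPM in Fast fish (-1.34 ± 0.17, adjusted p = 0.0013). The more abundant copy *pdpk1b* did not pass (-0.25, adjusted p = 0.19). It averaged 16.0 TPM over the Refed_3h and Fast fish, against 3.18 TPM for *pdpk1a*. The fifth member that passed, the PI3-kinase subunit gene *pik3cb*, changed least (-0.46 ± 0.12, adjusted p = 0.043), and the list's median was -0.25. The other 4 passed with the skin score in the model and also without Fast fish 1.

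Of 5 FoxO genes, *foxo4* passed and was lower, with 25.1, 24.4, 27.4 and 24.3 CPM in Refed_3h and 51.6, 61.9, 70.8 and 68.8 CPM in Fast fish (-1.32 ± 0.17, adjusted p = 0.001). The Refed_3h fish lay close together and well below the lowest Fast fish. *foxo1a* (0.74, adjusted p = 0.16) and *foxo3b* (-0.22, adjusted p = 0.6) did not pass. Among IGF ligands and binding proteins 1 of 12 passed, the ligand gene *igf2b*, at 15.6, 13.2, 12.1 and 15.7 CPM in Refed_3h and 20.02, 22.1, 24 and 19.4 CPM in Fast fish (-0.59 ± 0.14, adjusted p = 0.03, not passed in 8 of the alternatives), whereas *igf1* had a log2 fold change of 0.59 (adjusted p = 0.37). In the myostatin and activin list 1 of 16 members passed upward and 2 downward, against 2.28% and 2.63% of all genes. The myostatin gene *mstnb*, a brake on muscle growth, was higher (0.70 ± 0.18, adjusted p = 0.046). The receptor and signal genes *acvr1ba* and *smad3a* were lower (-0.63 ± 0.15 and -0.64 ± 0.14). Each was lost in 6 to 12 alternatives, and none passed with the skin score in the model or without Fast fish 1, Refed_3h fish 1 or Refed_3h fish 4.

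In the list of brakes on mTORC1 and translation, a sestrin and a translation repressor were lower. *sesn1*, whose mammalian relatives hold mTORC1 inactive when leucine is scarce, had 95.4, 84.9, 95.7 and 117 CPM in Refed_3h and 210.0, 296, 791 and 429 CPM in Fast fish (-2.14 ± 0.35, adjusted p = 0.0059). Refed_3h fish lay in a narrow band while Fast fish 3 was the highest by a wide margin. *eif4ebp3*, a repressor of cap-dependent translation, had 13.8, 9.9, 6.8 and 10.7 CPM in Refed_3h and 14.4, 16.5, 18.9 and 32.9 CPM in Fast fish, groups that nearly met (-1.01 ± 0.26, adjusted p = 0.042, lost in 8 alternatives). These were 2 of 13 members, against 2.63% lower over all genes, and the list's median was -0.37. *sesn2* (0.49, adjusted p = 0.26) and the tuberous sclerosis gene *tsc2* (-0.01, adjusted p = 0.96) did not pass.

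The autophagy genes that passed were all lower: 7 of 39 tested members, against 2.63% of all genes, and 32 of the 39 had a log2 fold change under 0 (median -0.33). *ulk2*, a kinase that starts autophagosome formation, had 4.74, 4.77, 5.99 and 5.22 CPM in Refed_3h and 23.8, 47.2, 55.3 and 29.3 CPM in Fast fish (-2.90 ± 0.34, adjusted p = 0.00069). Every Refed_3h fish lay near 5 CPM, and the lowest Fast fish at 23.8 CPM. The other 6 were the cargo receptor genes *nbr1a* (-1.16 ± 0.14) and *nbr1b* (-0.68 ± 0.15), *rb1cc1* of the ULK complex (-0.85 ± 0.18), the membrane scramblase genes *atg9a* (-0.65 ± 0.16) and *atg9b* (-0.78 ± 0.19), and *tp53inp1* (-1.03 ± 0.20). Of the list 3 passed with the skin score in the model, 2 without Fast fish 1, 3 without Refed_3h fish 1 and 4 without Fast fish 2.

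The list headed p53 and its targets had 7 of 21 members that passed, all lower, against 2.63% of all genes, with a median of -0.34. It also holds cell cycle genes that are not specific to p53, such as *ccng2* and *cdkn1bb*, so the count is not one of p53 targets alone. *bbc3*, which encodes the pro-apoptotic BH3 protein PUMA, had 1.55, 0.477, 1.39 and 0.58 CPM in Refed_3h (8 to 21 counts) and 9.98, 5.61, 7.82 and 9.62 CPM in Fast fish (-3.05 ± 0.44, adjusted p = 0.0024). Its partner in the class, the NOXA gene *pmaip1*, had 3.92, 5.07, 6.07 and 3.99 CPM in Refed_3h and 13, 12.3, 6.02 and 8.13 CPM in Fast fish, where the groups overlapped and 10 alternatives lost the call (-1.05 ± 0.27, adjusted p = 0.044). *ccng2*, an atypical cyclin of quiescent cells and a known FoxO target in mammals, had 11.8, 13.7, 11.6 and 15.1 CPM in Refed_3h and 30.6, 50.3, 42.6 and 47.4 CPM in Fast fish (-1.71 ± 0.16, adjusted p = 9.1e-05). The remaining members were *sesn1*, *tp53inp1*, the cell cycle inhibitor gene *cdkn1bb* (-0.76 ± 0.12) and the antiproliferative gene *btg1* (-0.71 ± 0.15), so that several of the 7 stand on other lists too. The copy *cdkn1ba* did not pass (0.44, adjusted p = 0.1), at 31.7 TPM over the Refed_3h and Fast fish against 21.0 TPM for *cdkn1bb*. *cdkn1a*, which encodes p21, was near the floor of the data at 0.592, 0.954, 1.1 and 0.363 CPM in Refed_3h and 1.94, 1.52, 1.41 and 1.66 CPM in Fast fish and did not pass (-1.11 ± 0.32, adjusted p = 0.06). None of 32 cell cycle and DNA replication genes passed. Their median was -0.59, -0.87 with library totals alone, -0.54 on log2(TPM + 1) and 0.09 with the skin score in the model. The fish overlapped: the list's median in each fish, as log2 CPM relative to the Fast mean, was -1.05 to -0.04 in Refed_3h and -0.64 to 0.36 in Fast. *pcna* was at 0.12 ± 0.30.

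Other regulators fell as well. *klf11b*, a Krüppel-like zinc finger factor, had 7.92, 8.23, 7.6 and 7.4 CPM in Refed_3h and 51.9, 105, 50.8 and 50.7 CPM in Fast fish (-3.05 ± 0.24, adjusted p = 3.2e-05). The Refed_3h fish were almost identical, and Fast fish 2 stood apart above 3 Fast fish that were also almost identical. The stress-induced chromatin proteins *nupr1b* and *nupr1a* were both lower, *nupr1b* with 2.44, 2.44, 1.61 and 3.12 CPM in Refed_3h and 5.99, 15.4, 16.9 and 16 CPM in Fast fish (-2.49 ± 0.31, adjusted p = 0.001) and *nupr1a* with a log2 fold change of -1.20 ± 0.18 (adjusted p = 0.0027). *ankrd9*, an ankyrin repeat gene, had 3.85, 3.76, 4.83 and 16.7 CPM in Refed_3h and 30.4, 67.6, 71.3 and 39.2 CPM in Fast fish, but fish 4 of Refed_3h stood above the other 3 and the call was borderline (-2.84 ± 0.72, adjusted p just under 0.05, lost in 11 alternatives). The monocarboxylate carrier gene *slc16a9a* had 9.4, 9.66, 18.9 and 9.29 CPM in Refed_3h and 35.8, 61.3, 45.6 and 75.9 CPM in Fast fish (-2.21 ± 0.27, adjusted p = 0.001).

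Genes of lipid handling moved in both directions. *mid1ip1l* had the largest rise among the genes named here. It belongs to the Spot14 and MIG12 family, whose mammalian members bind acetyl-CoA carboxylase and raise fatty acid synthesis, and its gene (chromosome 14, 41466368 to 41469036) had 409, 287, 447 and 400.2 CPM in Refed_3h and 44.4, 26.2, 86.4 and 60.6 CPM in Fast fish (2.83 ± 0.39, adjusted p = 0.0024). The lowest Refed_3h fish was over 3-fold above the highest Fast fish. *tecra*, the enoyl-CoA reductase that ends each cycle of fatty acid elongation, had 157, 137, 197 and 179 CPM in Refed_3h and 59.9, 34.6, 21.3 and 59.6 CPM in Fast fish (1.93 ± 0.28, adjusted p = 0.0025). The elongase gene *elovl5* was lower, at 1.07 to 1.38 CPM in Refed_3h and 2.31 to 3.54 CPM in Fast fish (-1.31 ± 0.25, adjusted p = 0.012, lost with the skin score in the model). Of 15 elongation and desaturation genes these were the 1 that passed upward and the 1 that passed downward, against 2.28% and 2.63% of all genes. *g0s2*, an inhibitor of adipose triglyceride lipase, had 82.5, 49, 42 and 54.4 CPM in Refed_3h and 13.5, 29.9, 22.1 and 18.6 CPM in Fast fish (1.44 ± 0.30, adjusted p = 0.021, lost in 4 alternatives). *angptl4*, an inhibitor of lipoprotein lipase that rises on fasting in mammals, was lower (-1.87 ± 0.28, adjusted p = 0.003, lost with the skin score in the model). *g0s2* and *angptl4* were the 1 higher and the 1 lower of 20 genes of lipid uptake, storage and lipolysis. The lipid regulator gene *pparg* was lower (-1.27 ± 0.33, adjusted p = 0.044, on 7 to 11 counts per Refed_3h fish, lost in 12 alternatives). So was the uncoupling protein gene *ucp3*, at 17.7, 12.8, 31.5 and 16.5 CPM in Refed_3h and 40.7, 96, 109.6 and 41.3 CPM in Fast fish (-1.87 ± 0.39, adjusted p = 0.021, lost in 3 alternatives). They were the 2 of 13 PPAR, PGC-1 and uncoupling protein genes that passed. None of that list passed with the skin score in the model or without Refed_3h fish 1 or 4.

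Most enzymes of lipid metabolism did not pass. In the lipogenesis list *mid1ip1l* was the 1 of 23, with the fatty acid synthase gene *fasn* at 0.47 (adjusted p = 0.16) and the acetyl-CoA carboxylase gene *acaca* at -0.42 (adjusted p = 0.11). None of 30 genes of the carnitine shuttle and fatty acid oxidation passed (median 0.19; *acadm* 0.19 ± 0.24), and none of 24 of cholesterol synthesis (median -0.50). The cholesterol genes varied most among fish of 1 group: *hsd17b7* had 43, 197, 73.6 and 248 CPM in Refed_3h and 416, 298, 49.6 and 53.8 CPM in Fast fish, with high and low fish in each group. In the list of sterol sensing, uptake and efflux 4 of 18 passed, all lower, against 2.63% of all genes: the LDL receptor gene *ldlra* (-1.04 ± 0.25), *lrp1ab* (-0.90 ± 0.22), the LDL receptor ligase gene *mylipb* (-0.83 ± 0.22) and the cholesterol efflux pump gene *abca1a* (-0.64 ± 0.16), none of which passed with the skin score in the model or without Fast fish 1, Refed_3h fish 1 or Refed_3h fish 4. The list held 1 or 2 that passed when another fish was left out.

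In carbohydrate metabolism a lactate carrier rose. *slc16a3*, which encodes the lactate exporter MCT4 of glycolytic fibres, had 149, 87.3, 132 and 129.6 CPM in Refed_3h and 24.9, 35.3, 33.2 and 24.2 CPM in Fast fish (2.08 ± 0.21, adjusted p = 0.00019). Fish 2 was the lowest Refed_3h fish and was still more than 2-fold above every Fast fish. The 36 glycolysis genes held none that passed (median 0.32 under TMM scaling, 0.03 with library totals alone and -0.03 on log2(TPM + 1)); *aldoaa* had a log2 fold change of 0.61 ± 0.22 (adjusted p = 0.13). In glycogen metabolism 2 of 31 passed, both higher, against 2.28% of all genes. They were the genes of 2 subunits that target protein phosphatase 1 to glycogen, *ppp1r3aa* (0.89 ± 0.20) and *ppp1r3cb* (0.71 ± 0.19), lost in 9 and 14 alternatives. *slc37a4b_1*, 1 of 2 entries for a glucose-6-phosphate transporter gene, was higher (1.76 ± 0.38, adjusted p = 0.024), and reads may be shared between the entries.

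**Figure D2:**
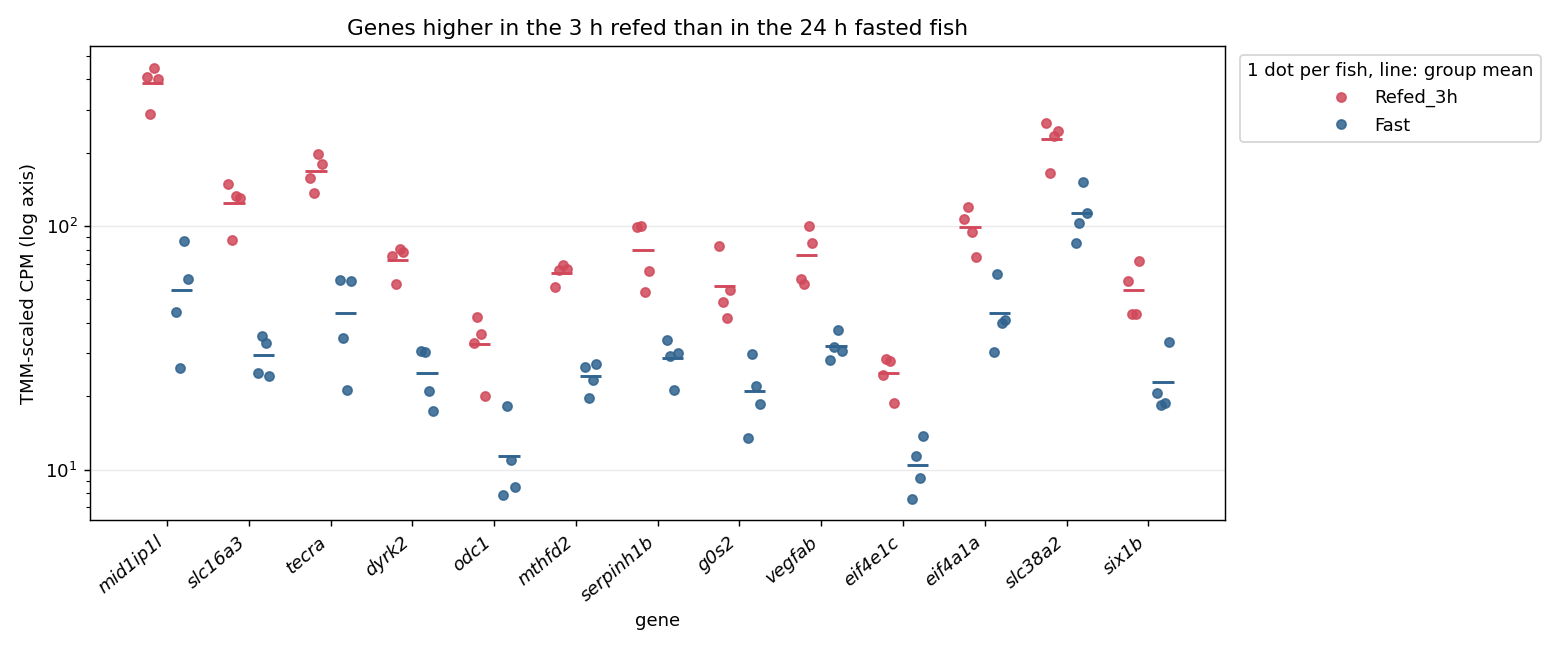
TMM-scaled CPM on a log axis of 13 genes higher in Refed_3h than in Fast muscle, with 1 dot per fish and a line at the group mean. The groups do not overlap in any of these genes, but many were picked by a rule that asked for no overlap. Of all tested genes 14.0% had no overlap. *mid1ip1l* has the widest gap (287 to 447 CPM in Refed_3h, 26.2 to 86.4 CPM in Fast).

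Several genes of translation initiation were higher in Refed_3h. Of 64 translation factors 8 passed, all higher, against 2.28% of all genes, with a median over the list of 0.13. Cap-binding proteins led: *eif4e1c*, a fish-specific eIF4E copy, had 24.4, 28.4, 28 and 18.7 CPM in Refed_3h and 7.59, 11.3, 9.23 and 13.8 CPM in Fast fish (1.25 ± 0.20, adjusted p = 0.0056), and *eif4ea* had 14.2, 13.6, 13.2 and 13.3 CPM in Refed_3h and 7.82, 7.78, 7.12 and 6.59 CPM in Fast fish (0.89 ± 0.14, adjusted p = 0.005). *eif4a1a*, the RNA helicase that unwinds leaders, had 107, 120.1, 94.4 and 74.5 CPM in Refed_3h and 30.4, 63.4, 39.97 and 41.3 CPM in Fast fish (1.18 ± 0.24, adjusted p = 0.018). No fish of 1 group entered the range of the other in these 3 genes. The copy *eif4a1b* did not pass (0.08, adjusted p = 0.77). It was far more abundant, at 404 TPM over the Refed_3h and Fast fish against 46.1 TPM for *eif4a1a*. The rest of the 8 that passed were *eif5b* (0.69 ± 0.15), *eif4g1a* (0.66 ± 0.15), *eif4g2a* (0.52 ± 0.12), *eif4e2* (0.68 ± 0.14), whose mammalian product represses rather than starts translation, and *eif1axa* (0.66 ± 0.15). With library totals alone 1 member passed upward and 3 downward, with a median of -0.15. The number that passed upward was 4 with the skin score in the model, 2 without Fast fish 1, 3 without Refed_3h fish 1 and 4 without Fast fish 4.

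Few ribosome genes passed. In ribosome biogenesis 3 of 74 passed, *rrs1* (0.90 ± 0.19), *nop2* (0.72 ± 0.17) and *nolc1* (0.66 ± 0.16), in mitochondrial ribosomal proteins 3 of 74 (*mrps23*, *mrpl54* and *mrpl48*, 0.64 to 0.77, lost in 16, 11 and 7 alternatives), and in cytosolic ribosomal proteins none of 76. Over all genes 2.28% passed upward. No ribosome biogenesis gene passed with library totals alone, with the skin score in the model, or without Fast fish 4, Refed_3h fish 1 or Refed_3h fish 3, and 1 passed without Fast fish 1 or Refed_3h fish 2. Of the cytosolic set 74 had a positive value under TMM scaling (median 0.20), but the median was -0.08 with library totals alone and -0.14 on log2(TPM + 1), so that their direction turned with the scaling. Nuclear genes of oxidative phosphorylation were positive in 87 of 89 cases (median 0.40; 0.11 with library totals alone and 0.06 on log2(TPM + 1)) and 1 passed, *cox4i2* (0.58 ± 0.16, adjusted p just under 0.05). None of 24 aminoacyl-tRNA synthetase genes passed. In the MYC family none of the *myc* genes passed (*myca* 0.42, adjusted p = 0.3, and *mycb* 0.80, adjusted p = 0.24). Of the 12 members 3 were lower, against 2.63% of all genes. They were genes of MAX partners that oppose MYC: *mxi1* (-0.78 ± 0.14, adjusted p = 0.0095), *mntb* (-0.93 ± 0.17, adjusted p = 0.01) and *mnta* (-0.56 ± 0.15, adjusted p = 0.044). None of the 3 passed with the skin score in the model.

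Several partners of HSP90 were higher: 5 of 19 members of the list passed upward and 1 passed downward, against 2.28% and 2.63% of all genes (median 0.47 under TMM scaling, 0.18 with library totals alone). The 5 that passed upward were the ATPase activator genes *ahsa1a* (0.79 ± 0.19) and *ahsa1b* (0.92 ± 0.16), the p23 gene *ptges3a* (0.75 ± 0.13), and the genes of the HSP70 to HSP90 adaptor *stip1* (0.48 ± 0.12) and the immunophilin *fkbp4* (0.67 ± 0.16). With library totals alone none passed upward, and 2 passed upward with the skin score in the model. Leaving out 1 fish gave 2 to 5 higher, with 2 without Fast fish 1 or 2 or Refed_3h fish 1 or 3. The member that fell was *hsf2*, a heat shock transcription factor, with 4.81, 9.48, 5.41 and 4.13 CPM in Refed_3h and 21.3, 26, 18.9 and 23.3 CPM in Fast fish (-1.90 ± 0.24, adjusted p = 0.0011). Of 54 HSP70, J-protein, BAG and CCT chaperone genes 2 passed upward and 1 downward, against 2.28% and 2.63% of all genes. *hspa4a* was higher, at 79.4, 72.5, 63.1 and 46.9 CPM in Refed_3h and 32.3, 27.4, 34.7 and 40.1 CPM in Fast fish (0.96 ± 0.17, adjusted p = 0.0083). Its call was lost with library totals alone, on log2(TPM + 1) and on log2(TPM + 0.1). The copy *hspa4b* did not pass (-0.19, adjusted p = 0.35), at 29.7 TPM over the Refed_3h and Fast fish against 23.9 TPM for *hspa4a*. *hspa5*, also on the endoplasmic reticulum list, was the other member that was higher, and *cct2_1* was lower (-0.64 ± 0.17, adjusted p = 0.046, lost in 12 alternatives). In the endoplasmic reticulum the chaperone genes *hspa5*, *hyou1* and *pdia6* were higher (0.66 to 0.81) and the stress genes *herpud1* (-0.61 ± 0.13) and *eif2ak3* (-0.54 ± 0.14) were lower, 5 of 31, against 4.9% of all genes. The calls of *hspa5*, *hyou1* and *pdia6* were lost in 14, 9 and 12 of the 18 alternatives, and no member passed upward with library totals alone or when Fast fish 1, 3 or 4 or Refed_3h fish 1 or 2 was left out. *serpinh1b*, the collagen chaperone HSP47, had 99.4, 100.2, 53.4 and 65.6 CPM in Refed_3h and 34, 29.1, 21.2 and 30.2 CPM in Fast fish (1.48 ± 0.29, adjusted p = 0.015). Its copy *serpinh1a* did not pass (0.10, adjusted p = 0.84), at 25.1 TPM over these fish against 24.7 TPM for *serpinh1b*. None of 10 small heat shock genes passed.

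**Figure D3:**
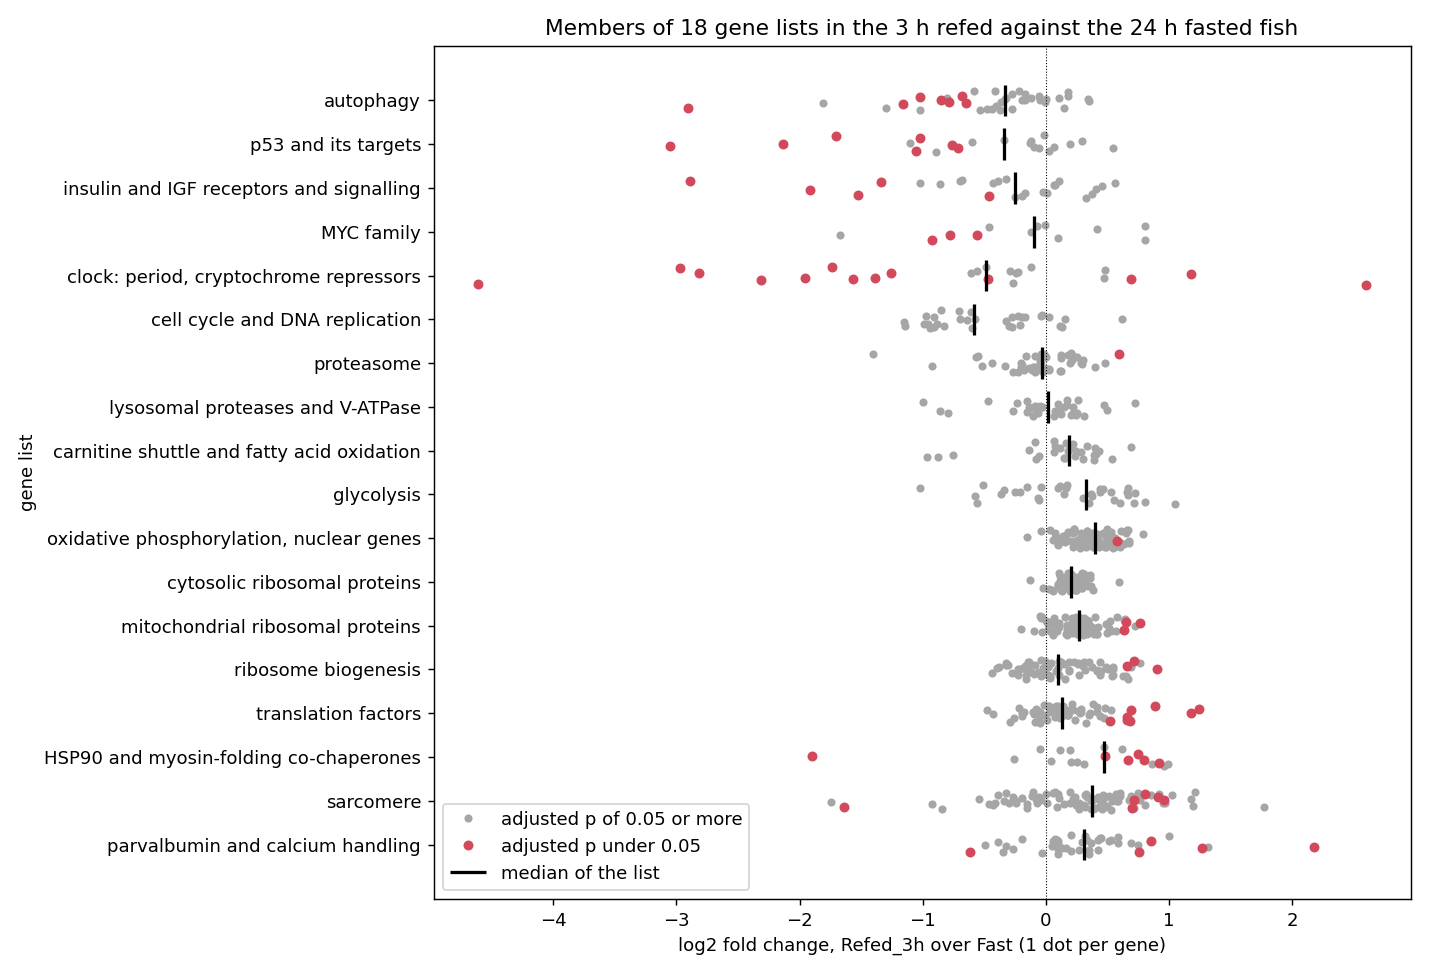
Log2 fold change of Refed_3h over Fast for each tested member of 18 gene lists, with members of adjusted p under 0.05 in red and the median of each list as a bar. Autophagy (7 of 39), the list headed p53 and its targets (7 of 21) and insulin signalling (5 of 25) hold members passed only on the lower side. Translation factors (8 of 64) hold them only on the higher side. Under the TMM scaling shown, the ribosomal and oxidative phosphorylation genes crowd just above 0. With library totals alone the medians were -0.08 for cytosolic and -0.001 for mitochondrial ribosomal proteins, and 0.11 for nuclear oxidative phosphorylation genes. The p53 list also holds cell cycle genes not specific to p53.

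Genes of amino acid and one-carbon metabolism changed in both directions. *mthfd2*, the mitochondrial folate dehydrogenase, had 56.3, 65.8, 69.1 and 66.3 CPM in Refed_3h and 26.4, 19.6, 23.4 and 27.2 CPM in Fast fish (1.41 ± 0.20, adjusted p = 0.0022). The mitochondrial folate carrier gene *slc25a32a* went the other way, at 4.81, 4.71, 6.65 and 6.96 CPM in Refed_3h and 17.1, 18.5, 10.4 and 18.4 CPM in Fast fish (-1.48 ± 0.21, adjusted p = 0.0025). Its copy *slc25a32b* did not pass (0.19, adjusted p = 0.77), at 7.47 TPM over these fish against 4.89 TPM for *slc25a32a*. Of 37 amino acid transporters 3 passed upward and 1 downward, against 2.28% and 2.63% of all genes. Upward were *slc1a4* (1.76 ± 0.40), the SNAT2 gene *slc38a2* (2.01-fold, adjusted p = 0.017) and *slc7a10a* (0.88 ± 0.20), and *slc43a2b* passed downward (-0.99 ± 0.22). *slc38a2*, the most abundant of these, had 264, 165, 235 and 244 CPM in Refed_3h and 84.9, 103, 151 and 113 CPM in Fast fish. None of the 4 passed with the skin score in the model or without Refed_3h fish 1, and 1 passed upward without Fast fish 1 or 4 or Refed_3h fish 3 or 4. *odc1*, the rate-limiting enzyme of polyamine synthesis, had 33.2, 42.4, 36 and 20.02 CPM in Refed_3h and 7.87, 18.3, 11 and 8.49 CPM in Fast fish (1.53 ± 0.35, adjusted p = 0.03, lost in 10 alternatives), and the spermidine synthase gene *srm* (0.79 ± 0.19) and *gamt* of creatine synthesis (0.91) were also higher, while *amd1*, which supplies the aminopropyl donor, was lower (-0.96 ± 0.21). No member of the arginase and polyamine list passed upward with library totals alone, with the skin score in the model, or without Fast fish 1, Refed_3h fish 1 or Refed_3h fish 3. Of 33 genes of amino acid breakdown 1 passed upward and 1 downward, against 2.28% and 2.63% of all genes. The branched-chain aminotransferase gene *bcat1* was higher (2.47 ± 0.54, adjusted p = 0.024, lost in 5 alternatives) on 9 to 12 counts per Fast fish. *tdh* was lower (-0.91 ± 0.24, adjusted p = 0.047, lost in 10 alternatives). Neither passed with the skin score in the model or without Fast fish 1 or Refed_3h fish 1.

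Of muscle genes proper, several fast-fibre and calcium-binding transcripts were higher and 1 thin-filament gene was lower. *pvalb2*, a parvalbumin that buffers calcium in fast fibres, had 5039.8, 1289.6, 5197 and 2356 CPM in Refed_3h and 939, 297, 1090.0 and 746 CPM in Fast fish (2.18 ± 0.47, adjusted p = 0.024). Fish 2 of Refed_3h was only just above the highest Fast fish, and 8 alternatives lost the call. *pvalb3* (0.76 ± 0.17) and *pvalb4* (0.85 ± 0.20), the calsequestrin gene *casq1a* (1.27 ± 0.27) and the fast troponin C gene *tnnc2* (0.95 ± 0.22) also passed. Of the parvalbumin and calcium handling list, the 4 that passed upward came to 1 with the skin score in the model or without Fast fish 1 or 4 or Refed_3h fish 1 or 4, and to none without Refed_3h fish 3. Of 98 sarcomere genes 5 passed upward, against 2.28% of all genes (*tnnc2*, *actc1b*, *myl2a*, *tnni2a.2* and *ldb3a*, 0.70 to 0.95), and *lmod2b*, a leiomodin that starts actin filaments, passed downward, with 2.66, 2.68, 2.78 and 2.61 CPM in Refed_3h and 8.1, 11.5, 4.77 and 9.08 CPM in Fast fish (-1.64 ± 0.25, adjusted p = 0.0039). The median of the sarcomere list was 0.37 under TMM scaling, 0.10 with library totals alone and 0.04 with the skin score. The number of its members that passed upward was 1 with library totals alone, with the skin score and without Fast fish 1 or 2 or Refed_3h fish 1, 3 or 4, 2 without Fast fish 3 or 4 and 9 without Refed_3h fish 2. The part of skin content in these rises was not tested. Slow-fibre markers summed to 2821 to 4096 TPM in Refed_3h and 2540 to 4294 TPM in Fast fish.

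Some myogenic regulators were higher. *six1b*, a homeobox factor of fast muscle, had 59.3, 43.6, 43.5 and 72 CPM in Refed_3h and 20.7, 18.3, 18.9 and 33.5 CPM in Fast fish (1.26 ± 0.23, adjusted p = 0.0099). *meox1* (1.11 ± 0.20) and *six1a* (0.74 ± 0.18) also passed, 3 of 22 in all, against 2.28% higher over all genes. *myog*, the myogenin gene, had 18.3, 16.2, 15.1 and 22.6 CPM in Refed_3h and 4.85, 10.6, 1.25 and 7.66 CPM in Fast fish with no overlap, and missed the threshold (1.56 ± 0.43, adjusted p = 0.056). *myod1* had 29.8, 21.6, 21.3 and 22.3 CPM in Refed_3h and 9.64, 25, 3.6 and 13.7 CPM in Fast fish, where Fast fish 2 lay inside the Refed_3h range (0.87 ± 0.40, adjusted p = 0.22). None of the list passed with the skin score in the model. Both *vegfaa* and *vegfab*, copies of the main gene for vessel growth, were higher: *vegfab* had 60.5, 58, 100.2 and 85.2 CPM in Refed_3h and 28.1, 31.8, 37.5 and 30.8 CPM in Fast fish (1.24 ± 0.18, adjusted p = 0.0023) and *vegfaa* a log2 fold change of 1.26 ± 0.23 (adjusted p = 0.0099). They were the 2 of 16 hypoxia genes that passed, against 2.28% higher over all genes.

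Further regulators among the largest rises were the kinase gene *dyrk2*, with 75.1, 57.7, 80.2 and 78 CPM in Refed_3h and 30.6, 30.4, 21 and 17.4 CPM in Fast fish (1.55 ± 0.19, adjusted p = 0.001), and the pseudokinase gene *trib2*, with 15.4, 13.7, 15.4 and 24.1 CPM in Refed_3h and 4.51, 5.61, 6.88 and 4.27 CPM in Fast fish (1.69 ± 0.22, adjusted p = 0.0013). Both passed under every alternative. *mafaa*, a large Maf transcription factor gene (1.82 ± 0.30), *sgk2b*, an AKT-related kinase gene (1.51 ± 0.27), *her6*, the fish counterpart of mammalian Hes1 (1.43 ± 0.28), and *vwde* (1.51 ± 0.31) were also higher, and each was lost with the skin score in the model. Of 42 antioxidant and xenobiotic genes 3 were higher, against 2.28% of all genes. *cyp1a*, the classical target of the aryl hydrocarbon receptor, had 7.99, 5.78, 8.26 and 8.2 CPM in Refed_3h and 2.8, 2.11, 2.66 and 1.72 CPM in Fast fish (1.70 ± 0.24, adjusted p = 0.0022). The glutathione transferase gene *gstm.1* had a log2 fold change of 0.94 ± 0.15 and *gclm*, a subunit of the enzyme that makes glutathione, of 0.76 ± 0.17. *ptgr1*, a prostaglandin and leukotriene reductase gene, had 8.81, 9.9, 91.2 and 67.3 CPM in Refed_3h and 6.28, 7.78, 7.35 and 8.72 CPM in Fast fish. Its rise lay in Refed_3h fish 3 and 4 alone, the other 2 being close to the Fast fish, and it did not pass (2.55 ± 0.82, adjusted p = 0.099). None of 46 interferon and antigen presentation genes and none of 24 growth hormone, STAT and SOCS genes passed.

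Many clock genes differed. In the vertebrate clock, CLOCK and BMAL activate the period, cryptochrome, REV-ERB and PAR bZIP genes, whose products feed back on them, and zebrafish muscle keeps its own light-responsive clock. Of 23 members of the list headed period, cryptochrome, CIART, CIPC and BHLHE genes, 10 were lower and 3 higher in Refed_3h, against 2.63% lower and 2.28% higher over all genes. *per1a* had 0.518, 1.07, 2.05 and 0.653 CPM in Refed_3h and 25.7, 21.1, 37.6 and 21.2 CPM in Fast fish (-4.61 ± 0.38, adjusted p = 4.6e-05). The CLOCK partner inhibitors *ciarta*, at 2.59, 8.17, 4.68 and 5.8 CPM in Refed_3h and 48.7, 41.7, 43.3 and 34 CPM in Fast fish (-2.97 ± 0.27), and *cipca*, at 0.37, 1.07, 0.804 and 2.1 CPM in Refed_3h and 9.53, 5.08, 8.21 and 8.13 CPM in Fast fish (-2.82 ± 0.44), fell with it, as did *ciartb* (-2.31 ± 0.54), *per1b* (-1.95 ± 0.28), *cry2* (-1.74 ± 0.23), *bhlhe41* (-1.57 ± 0.15), *per3* (-1.39 ± 0.24) and *cipcb* (-1.26 ± 0.17). The kinase gene *csnk1da*, of none of these families, is counted among the 10 and changed little (-0.47 ± 0.12). *cry3b* rose, with 42.6, 35.2, 39.99 and 38.5 CPM in Refed_3h and 6.62, 6.46, 7.67 and 5.04 CPM in Fast fish (2.60 ± 0.16, adjusted p = 7.1e-06), and *cry3a* (1.18 ± 0.16) and *cry4* (0.69 ± 0.16) were higher too.

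Several REV-ERB and PAR bZIP genes were lower too. *nr1d1*, which encodes the repressor REV-ERB alpha, had 1.26, 3.82, 4.31 and 3.41 CPM in Refed_3h and 62.1, 58.1, 45.1 and 51.9 CPM in Fast fish (-4.08 ± 0.28, adjusted p = 9.2e-06). Among the other receptors *nr1d2a* had 5.48, 11.5, 12.1 and 18.5 CPM in Refed_3h and 71.1, 61.4, 178 and 19.1 CPM in Fast fish, where Fast fish 4 was hardly above Refed_3h fish 4 (-2.79 ± 0.56, adjusted p = 0.021, lost in 6 alternatives). *nr1d2b* was lower (-1.02 ± 0.15), *nr1d4b* was lower on 5 counts over all Refed_3h fish (-3.39 ± 0.65, adjusted p = 0.013), and the opposing ROR gene *rorcb* was higher (1.29 ± 0.20, adjusted p = 0.0032), 5 of 9 in all. Of the PAR bZIP activators *dbpb* had 4.52, 7.51, 7.09 and 7.69 CPM in Refed_3h and 59.6, 49, 64.3 and 71 CPM in Fast fish (-3.18 ± 0.27, adjusted p = 4.8e-05), and *dbpa* (-1.68 ± 0.33) and *tefb* (-1.55 ± 0.36) were lower. *nfil3-5*, from the family of repressors that bind the same DNA boxes, was higher, with 36.2, 25.3, 28.4 and 44.3 CPM in Refed_3h and 13.3, 8.57, 13.7 and 5.58 CPM in Fast fish (1.71 ± 0.27, adjusted p = 0.005). Of the activators themselves, 1 of 6 passed, the BMAL1 gene *arntl1a* (0.65 ± 0.17, adjusted p = 0.049, lost in 14 alternatives). With the skin score in the model 9 of the 13 period-to-BHLHE calls were left in the list count (7 lower and 2 higher), 3 of the 5 REV-ERB and ROR calls and 2 of the 4 PAR bZIP and NFIL3 calls, and *nfil3-5*, *nr1d2a*, *nr1d4b* and *tefb* were among those lost.

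**Figure D4:**
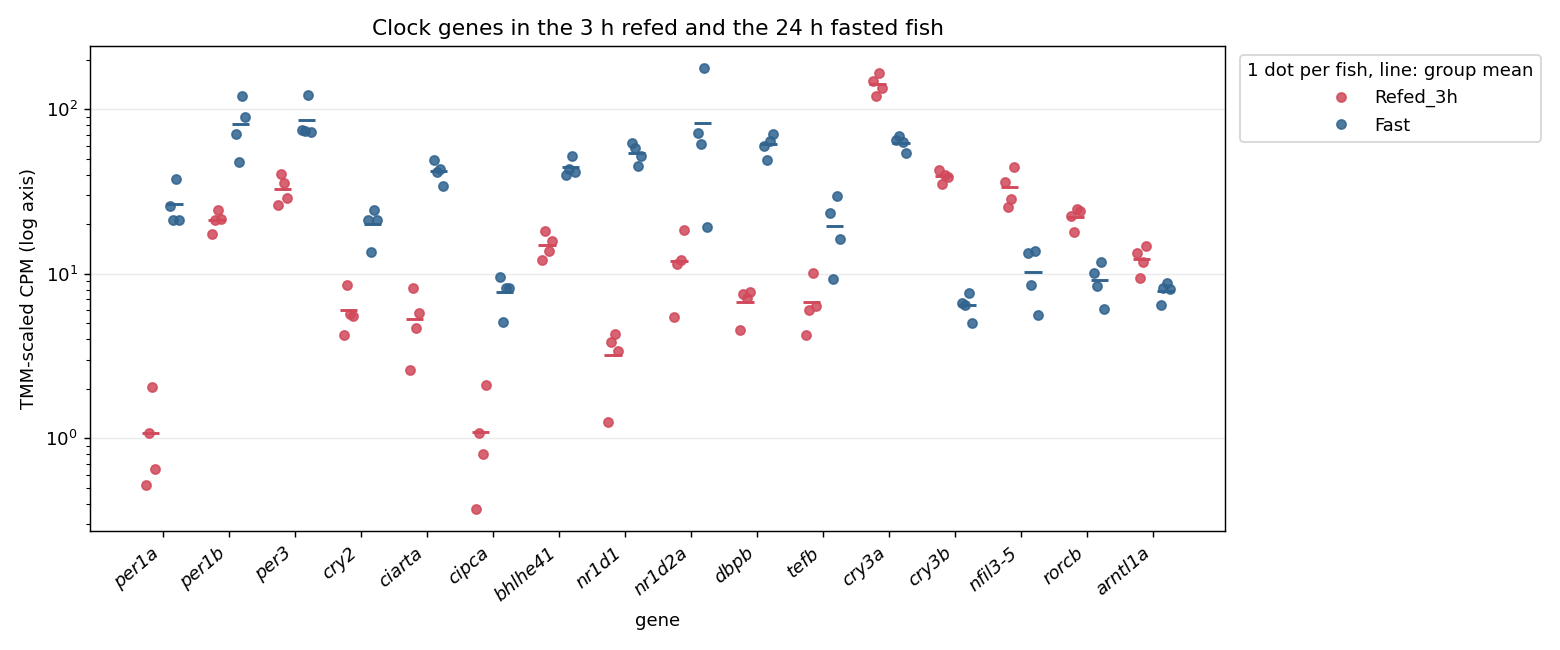
TMM-scaled CPM on a log axis of 16 clock genes in Refed_3h and Fast muscle, with 1 dot per fish and a line at the group mean. The first 11 genes are lower and the last 5 higher in Refed_3h. The groups overlap only in *tefb*, but some of the genes were picked by a rule that asked for no overlap. Of all tested genes 14.0% had no overlap.

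The Refed_8h fish show where these genes stood 5 h later. Not all falls were reversed. *pdk2b*, *slc16a9a*, *ankrd9* and *hsf2* did not pass between 3 h and 8 h (edgeR adjusted p = 0.33, 0.3, 0.85 and 0.32). At 8 h *slc16a9a* and *hsf2* were still lower than in Fast fish (-1.72 and -2.33, adjusted p = 0.0044 and 0.00019). *pdk2b* and *ankrd9* did not pass between 8 h and Fast (adjusted p = 0.06 and 0.13). Several other genes that were lower at 3 h were higher again at 8 h. *fbxo32* averaged 1.67 ± 0.432 CPM in Refed_3h and 49.8 ± 42.7 CPM in Refed_8h fish (SD, n = 4 each; Refed_8h against Refed_3h adjusted p = 0.0047). *klf11b* averaged 7.79 ± 0.364 CPM in Refed_3h and 53 ± 8.04 CPM in Refed_8h fish (adjusted p = 4.8e-05), *klhl24b* 18.5 ± 1.96 CPM in Refed_3h and 115 ± 20.3 CPM in Refed_8h fish (adjusted p = 1.1e-05), and *foxo4* 25.3 ± 1.45 CPM in Refed_3h and 61.6 ± 13.9 CPM in Refed_8h fish (adjusted p = 0.00083), by the same edgeR test. Clock genes split. *nr1d1* averaged 3.2 ± 1.35 CPM in Refed_3h and 2.62 ± 0.436 CPM in Refed_8h fish (adjusted p = 0.59), and *ciarta* 5.31 ± 2.32 CPM in Refed_3h and 0.831 ± 0.187 CPM in Refed_8h fish (adjusted p = 0.0004), whereas *rorcb* averaged 22.2 ± 3.13 CPM in Refed_3h and 73.4 ± 11.1 CPM in Refed_8h fish (adjusted p = 0.00031) and *nfil3-5* 33.6 ± 8.5 CPM in Refed_3h and 95.2 ± 18.9 CPM in Refed_8h fish (adjusted p = 0.0063). Rises that were smaller at 8 h included that of *mid1ip1l*, which averaged 386 ± 68.7 CPM in Refed_3h and 143 ± 68.5 CPM in Refed_8h fish (adjusted p = 0.04). Others were *dyrk2*, with 72.7 ± 10.3 CPM in Refed_3h and 32.4 ± 4.46 CPM in Refed_8h fish (adjusted p = 0.0041), and *trib2* and *sgk2b*. *trib2* averaged 17.1 ± 4.7 CPM in Refed_3h and 3.7 ± 0.633 CPM in Refed_8h fish (adjusted p = 0.00018). *sgk2b* averaged 16.8 ± 4.76 CPM in Refed_3h and 2.89 ± 1.03 CPM in Refed_8h fish (adjusted p = 0.00031). Not all rises shrank: *g0s2* and *slc38a2* did not pass between 3 h and 8 h (adjusted p = 0.96 and 0.84).

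Duplicated genes did not always respond alike. Among 1751 pairs of symbols that differ only in a final a or b, 57 responded unequally (3.26%; limma adjusted p under 0.05 on the difference between the 2 genes within a fish, and at least 1 on the log2 scale). In 33 of these 1 gene alone passed the test across all genes, in 5 both passed in the same direction, in 2 they passed in opposite directions and in 17 neither passed. Where both genes of a pair were DEGs, which held for 13 pairs, both moved the same way in all 13. Symbols alone made the pairs, and a few, such as *fam13a* and *fam13b*, name separate genes in mammals as well.

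The widest gap was that of *klhl38a* over *klhl38b* described above (6.07 ± 0.50, adjusted p = 1.8e-05). *klf11a* had 12.4, 16.2, 13.6 and 9.79 CPM in Refed_3h and 8.56, 14.7, 11.4 and 12.7 CPM in Fast fish while *klf11b* fell, a gap of 3.09 ± 0.26 (adjusted p = 1.8e-05). *tecrb* had 51.1, 51.9, 45.4 and 50.3 CPM in Refed_3h and 39.5, 49.1, 46.7 and 43.9 CPM in Fast fish while *tecra* rose, a gap of 1.89 ± 0.33 (adjusted p = 0.0073). Per length, *tecra* averaged 50.3 TPM in Refed_3h and 17.2 TPM in Fast fish, and *tecrb* 37.8 TPM in Refed_3h and 43.2 TPM in Fast fish, so that *tecra* was above *tecrb* in Refed_3h fish and below it in Fast fish. The membrane serine protease genes *tmprss4a* and *tmprss4b* differed by -2.48 ± 0.36 (adjusted p = 0.0019): *tmprss4a* had 8.29, 10.4, 6.36 and 5.44 CPM in Refed_3h and 20.9, 21.6, 17.1 and 22.6 CPM in Fast fish, and *tmprss4b* had 146, 74.2, 44.7 and 86.9 CPM in Refed_3h and 34.6, 36.1, 35.4 and 54.5 CPM in Fast fish.

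In glycolysis the glucose-6-phosphate isomerase copies *gpia* and *gpib* differed by -1.65 ± 0.40 (adjusted p = 0.037), with *gpib*, the more abundant copy in muscle (307 TPM against 50.5 TPM for *gpia* over the 8 fish), at 575, 388, 515 and 607 CPM in Refed_3h and 130.4, 254, 408 and 217 CPM in Fast fish; neither copy passed alone. The retinol dehydrogenase gene *rdh14b* was higher (1.16 ± 0.16, adjusted p = 0.002) and *rdh14a* was not called (-0.35 ± 0.22), a gap of -1.49 ± 0.21 (adjusted p = 0.0018). The arrestin-domain genes *arrdc3a* and *arrdc3b* differed by -1.46 ± 0.23 (adjusted p = 0.0045). *ivns1abpa* and *ivns1abpb*, Kelch-repeat genes, passed in opposite directions: *ivns1abpa* had 165, 223, 169 and 170.4 CPM in Refed_3h and 103, 118, 143 and 101 CPM in Fast fish, and *ivns1abpb* had 18.7, 26, 23.6 and 17.6 CPM in Refed_3h and 34.1, 41.2, 50.3 and 27.2 CPM in Fast fish (1.46 ± 0.17, adjusted p = 0.00031). The call of *ivns1abpa* was lost in 13 of the 18 alternatives and that of *ivns1abpb* in 7. In the clock, pairs that moved the same way did so by unequal amounts in *per1* (-2.71 ± 0.44), *dbp* (1.54 ± 0.28) and *cry3* (-1.42 ± 0.14), and in *nupr1* likewise (1.19 ± 0.29), all as the a gene minus the b gene. The 57 fell to 27 without Refed_3h fish 1, 33 without Fast fish 4 and 34 without Fast fish 1.

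**Figure D5:**
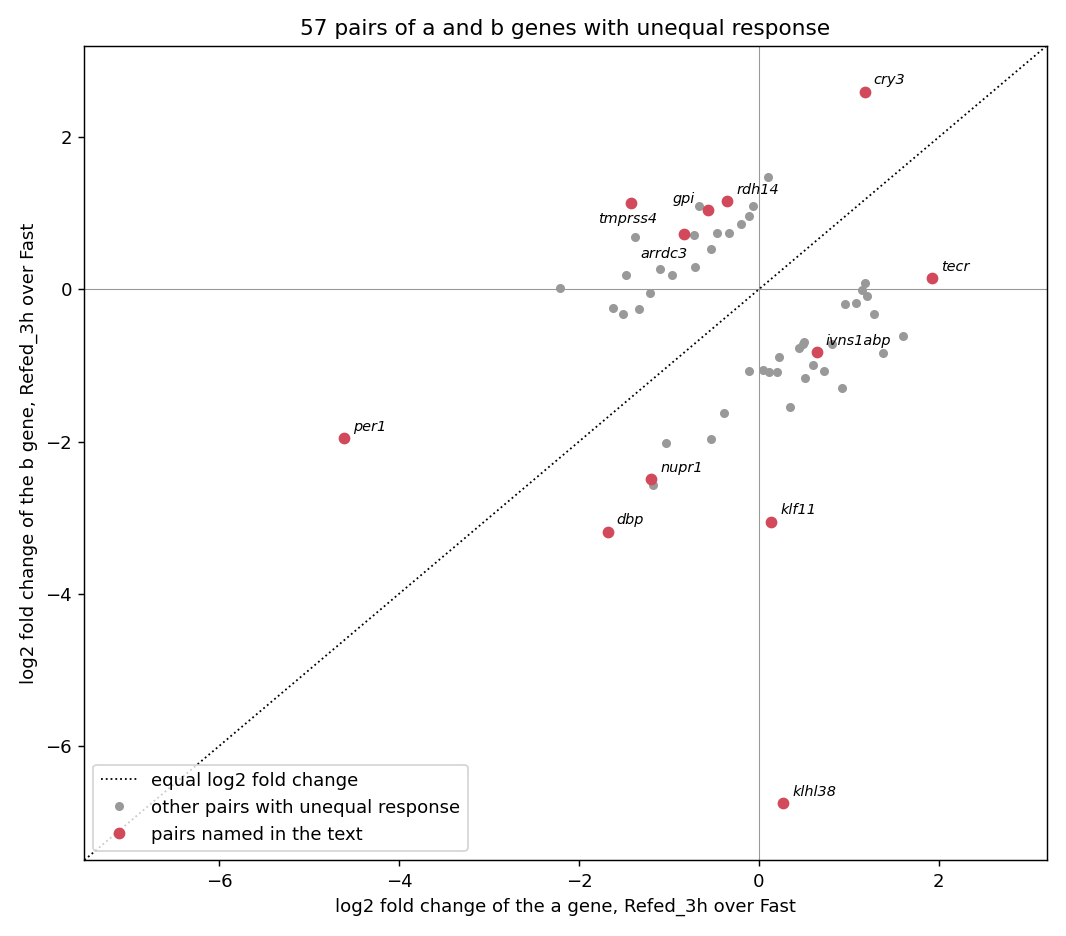
Log2 fold change of Refed_3h over Fast of the a gene (x axis) and the b gene (y axis) in the 57 pairs with unequal response. The dotted line marks equal fold changes; *klhl38* and *klf11* lie farthest below it at an a gene near 0, and *per1*, *dbp*, *nupr1* and *cry3* lie in the quadrants where both genes moved the same way.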

How the data were processed

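Poly(A) RNA of the tissue between anus and tail fin was sequenced from 12 fish. The authors mapped paired-end reads to GRCz11 with CLC Genomics Workbench and deposited raw counts per gene and TPM, which are scaled by exon length and library size. No source used here gives the annotation release, whether counting used strand or how reads with more than 1 match were treated, so near-identical copies and overlapping genes are uncertain. The deposited table also held 18 columns of the authors' own comparisons (fold changes and p-values) and 24 further per-fish columns, none of which was used. Gene symbols were those of the table, and 23499 of its 25281 identifiers were found in a gene name list.

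Counts of all 12 libraries were fitted in 1 model of 3 groups with edgeR 4.0.16 (filterByExpr, TMM, robust quasi-likelihood test, two-sided) in R 4.3.3, with Benjamini-Hochberg adjustment over the 16745 genes tested. The SE of an edgeR log2 fold change is an approximation, its size divided by the square root of its quasi-likelihood F statistic. Replicates were separate fish. Pairs of genes were tested with limma 3.58.1 on log2 CPM (prior count 2). Marker sums in TPM were compared with exact permutation tests over every division of the 8 fish into 4 and 4 (Python 3.11.15, numpy 2.4.6). The Refed_3h and Fast libraries had 11929140 to 17467497 counts and the Refed_8h libraries 15211830 to 18446239 counts, and no pair of the 12 differed by so little that it could be a repeat. Each procedure across genes was tested on simulated data. Alternatives were DESeq2 1.42.0, other size factors, library totals alone, no filter, the 8 libraries alone, a replicate block, a skin marker score as covariate, the fit without robust estimation, limma on log2(TPM + 1) and log2(TPM + 0.1), and leaving out each fish. The skin score covariate takes up part of the difference between groups, since it differed between them.

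Named genes were the 15 highest and 15 lowest DEGs with at least 10 TPM in a group, no overlap and a gene symbol, the genes named in the study's results, up to 4 passed members of each of 57 gene lists (or the most abundant where none passed), the top marker of each of 13 marker lists and 8 gene pairs with at least 5 TPM in both genes. Other list members given by name were chosen after their values were seen. The members and lists were chosen with earlier results of these data known.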

Additional observations from a re-analysis of the deposited data

Results flagged for a closer look

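In 18 of 358 groups of 4 fish that were examined, 1 fish stood apart from the other 3 by the Dixon criterion, and chance marks about 1 in 20 groups. Among genes that passed the test across all genes, *klf11b* had 105 CPM in Fast fish 2, against 50.7 to 51.9 CPM in the other Fast fish. *nupr1b* had 5.99 CPM in Fast fish 1, against 15.4 to 16.9 CPM in the others. *slc25a32a* had 10.4 CPM in Fast fish 3, against 17.1 to 18.5 CPM. *slc16a9a* had 18.9 CPM in Refed_3h fish 3, against 9.29 to 9.66 CPM in the other Refed_3h fish. *ankrd9* had 16.7 CPM in Refed_3h fish 4, against 3.76 to 4.83 CPM, and *trib2* had 24.1 CPM in the same fish, against 13.7 to 15.4 CPM. *cyp1a* had 5.78 CPM in Refed_3h fish 2, against 7.99 to 8.26 CPM.

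In muscle and chaperone genes, *myod1* had 29.8 CPM in Refed_3h fish 1, against 21.3 to 22.3 CPM in the other Refed_3h fish, and the myosin light chain gene *myl2a* had 39.2 CPM in that fish, against 26.6 to 28.3 CPM. *herpud1* had 24.9 CPM in it, against 19.7 to 20.5 CPM. *six1b* had 33.5 CPM in Fast fish 4, against 18.3 to 20.7 CPM in the other Fast fish. *cox4i2* had 12.2 CPM in Fast fish 4, against 8.44 to 9.00 CPM, and *gstm.1* had 40.8 CPM, against 34.0 to 34.2 CPM. *pdia6* had 29.3 CPM in Fast fish 1, against 33.2 to 33.9 CPM.

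Among gene pairs, *tmprss4b* had 54.5 CPM in Fast fish 4, against 34.6 to 36.1 CPM in the other Fast fish. *arrdc3b* had 109 CPM in Refed_3h fish 3, against 65.4 to 71.4 CPM in the other Refed_3h fish, and *ivns1abpa* had 223 CPM in Refed_3h fish 2, against 165 to 170.4 CPM. The markers of neurons and Schwann cells summed to 504 TPM in Fast fish 4, against 577 to 583 TPM in the other Fast fish. Fast fish 4 held 5 of the 18, and every other Refed_3h or Fast library held 1 to 3.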

How the results depend on the processing

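Against 347 DEGs (115 higher, 232 lower in Refed_3h), DESeq2 gave 586 (184 and 402, 338 of them shared), library totals alone 724 (44 and 680), log2(TPM + 0.1) with limma 737 (39 and 698), log2(TPM + 1) with limma 22 higher and 353 lower, the skin score as covariate 118 (41 and 77), and no fold limit 821 (381 and 440). Leaving out 1 fish gave 179 to 376 DEGs, 60 to 142 higher and 111 to 263 lower, with the lowest counts without Fast fish 1 (179) and Refed_3h fish 1 (181) and 226 without Refed_3h fish 4. The share of DEGs that were higher was 33.1%, against 6.08% with library totals alone, 5.87% on log2(TPM + 1) and 5.29% on log2(TPM + 0.1); the cause was not tested. Unequal gene pairs numbered 27 to 50 without 1 fish, against 57. Refed_3h and Fast fish with the same number correlated at -0.188, 0.276, 0.134 and -0.0986 in their deviations from the group means. Of the 4 Refed_3h fish, 2 correlated best with the Fast fish of their own number. Refed_8h and Fast fish with the same number correlated at 0.26, 0.251, 0.28 and 0.0441. So few fish cannot decide whether fish of the same number share a factor. A replicate block gave 368 DEGs (124 and 244) and 65 unequal pairs. Of the 128 named genes that passed, 80 did not pass with the skin score, 33 with library totals alone, 37 on log2(TPM + 1), 59 without Fast fish 1, 62 without Refed_3h fish 1 and none with DESeq2. Folds of genes with few counts in Refed_3h fish, such as *klhl38b*, depend on the prior count, and 4 fish a group limit the precision of all values.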
